A study of Mus musculus with 23 samples.

Results

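The longest windows of a genome-wide methylation map were examined in epiblast (Epi) and extra-embryonic ectoderm (ExE) of hybrid mouse embryos. The map tiles the genome into windows that were drawn to hold a set number of CpG dinucleotides each, so a long window is one in which CpGs are sparse. Members were the windows on chromosomes 1 to 19 with a length of 14 to 100 kb, and no methylation value entered this rule. The table of embryonic day (E) 7.5 held 18567 such windows out of 384346 autosomal windows and 402812 windows in all. Windows of the E6.5 table were drawn separately, and the same length rule gave 34536 members out of 320494 autosomal windows and 333984 in all.

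The study asked how parental alleles are regulated in the embryo and in the lineage that forms the placenta, using reciprocal crosses of C57BL6/Babr (B6) and CAST/Ei (CAST) mice with the maternal strain named first. DNA methylation was measured by post-bisulphite adaptor tagging, in which bisulphite converts unmethylated cytosines before the sequencing adaptors are added, and each value is the percent methylation of a window in a library. Wild-type E6.5 embryos gave 3 Epi and 2 ExE libraries of B6/CAST and 3 Epi and 2 ExE libraries of CAST/B6. The maternal double knockout, matDKO/CAST, gave 2 Epi and 3 ExE libraries at E6.5. Those embryos came from Dnmt3a fl/fl, Dnmt3b fl/fl females carrying Zp3-cre, which deletes in the growing oocyte, on a C57BL6/Babr/129 background, mated to CAST males. They were labelled Dnmt3a -/+, Dnmt3b -/+ with the deleted copies inherited from the mother, so that they lacked methylation set by both enzymes in the oocyte while carrying a functional paternal copy of each gene. At E7.5, wild-type embryos gave 2 libraries for each tissue in each cross.

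The E6.5 libraries were small shares of the input chromatin of pooled epiblasts or pooled ExE and were sequenced to low coverage, whereas each E7.5 library came from the lysed tissue of a single embryo and was sequenced more deeply. The deposited tables give percentages with no read coverage, so the depth behind a single value is unknown. It shows in the missing values, which were 0.05% to 44.3% of members per library at E6.5, with the largest share in Epi matDKO/CAST replicate 3. At E7.5, 18466 of the 18567 members had a value in all 8 libraries. At E6.5, 23077 members had a value in all 10 wild-type libraries and 11681 in all 15 libraries. The labels were checked at genes that mark the lineages. The window over the start of Elf5, a trophoblast regulator that is methylated in the embryonic lineage, had 80.4% to 92.6% in E7.5 Epi and 60.8% to 69.1% in ExE. The window over the start of Pou5f1, the pluripotency factor Oct4, had 11.4% to 24.96% in Epi and 37.2% to 42.1% in ExE. At Peg3, an imprinted gene methylated in the oocyte, wild-type E6.5 libraries had 51.5% to 92.0% and matDKO/CAST libraries 0% to 11.0%, with 1 missing. Of the 9 imprinted genes looked at in this way, matDKO/CAST lay below every wild-type library in 2, Peg3 and Kcnq1ot1, and overlapped in the other 7, such as Snrpn with 26.9% to 50% against 25.7% to 78.4%. At E6.5 the tissues overlapped at Elf5, with 75.2% to 95.2% in wild-type Epi and 69.9% to 85.2% in ExE.

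CpG methylation in mammals is written by the de novo enzymes DNMT3A and DNMT3B and copied at replication by DNMT1. The embryo loses most gametic methylation before implantation and regains it afterwards, to a high level in the epiblast and to a lower level in the extra-embryonic lineages. Trophoblast and placenta are known for partially methylated domains, long gene-poor and CpG-poor stretches of intermediate methylation, in which isolated CpGs flanked by A or T on both sides (solo-WCGW sites) are known to be poorly maintained.

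To show what such a window looks like in sequence, 3 stretches of 240 bases are printed from the midpoints of the long windows with the largest tissue difference, with the reverse difference and with none, each from the + strand of GRCm38 (RefSeq GRCm38.p6), with every CpG in capitals. The first, chr5:11806274-11806513, has 1 CpG and 39.2% GC. The second, chr13:120056644-120056883, has 0 CpGs and 48.3% GC. The third, chr17:17095868-17096107, has 3 CpGs and 41.7% GC.
Largest difference, chr5: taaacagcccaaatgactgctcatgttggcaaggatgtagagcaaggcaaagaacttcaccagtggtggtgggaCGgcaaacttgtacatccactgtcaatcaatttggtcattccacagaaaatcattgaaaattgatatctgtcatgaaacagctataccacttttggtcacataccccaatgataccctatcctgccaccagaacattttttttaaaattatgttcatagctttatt
Higher in ExE, chr13: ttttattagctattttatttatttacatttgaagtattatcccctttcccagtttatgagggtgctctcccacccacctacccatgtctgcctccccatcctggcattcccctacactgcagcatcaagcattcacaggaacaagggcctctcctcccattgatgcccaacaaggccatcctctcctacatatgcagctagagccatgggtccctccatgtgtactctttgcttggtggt
No difference, chr17: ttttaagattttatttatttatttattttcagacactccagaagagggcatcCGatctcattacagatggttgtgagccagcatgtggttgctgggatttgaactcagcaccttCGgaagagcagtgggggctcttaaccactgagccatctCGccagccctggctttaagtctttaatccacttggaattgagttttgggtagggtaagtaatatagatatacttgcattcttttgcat

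The long windows were gene-poor and GC-poor as well as CpG-poor. Their median length was 15991 bp, with the central 90% between 14159 and 22036 bp, and together they covered 317 Mb, which is 13.3% of the tiled autosomal length in 4.83% of the windows. They held a median of 3.79 CpGs per kb against 9.86 over all autosomal windows, a GC content of 37.2% against 43.8%, and 38.7% repeat-masked sequence against 24.95%. Solo-WCGW sites, here CpGs in the WCGW context with no other CpG within 35 bp, made up a median of 28.6% of their CpGs against 13.5%. No protein-coding gene touched 14089 of them (75.9%, against 45.7% of all windows), and 3010 (16.2%) lay wholly inside 1. The nearest coding start was a median of 327 kb away, against 43.1 kb. At E6.5, where windows were longer, the members had a median of 4.37 CpGs per kb.

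At E7.5 the long windows kept a high level in Epi and had a far lower level in ExE. Over the 18466 windows, the B6/CAST Epi libraries averaged 78.5% and 73.6% and the CAST/B6 Epi libraries 75.9% and 78.7%. The B6/CAST ExE libraries averaged 51.1% and 46.2% and the CAST/B6 ExE libraries 42.2% and 47.2%. Every Epi library lay above every ExE library, with 22.5 percentage points between the lowest Epi and the highest ExE. The Epi mean was 76.7% ± 2.40 (SD, n = 4) and the ExE mean 46.7% ± 3.68 (SD, n = 4), so that the long windows differed by 29.99 points and ExE kept 60.9% of the Epi level. All other windows averaged 73.8% ± 1.62 in Epi and 58.2% ± 1.61 in ExE (SD, n = 4 each), a difference of 15.6 points.

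**Figure D1:**
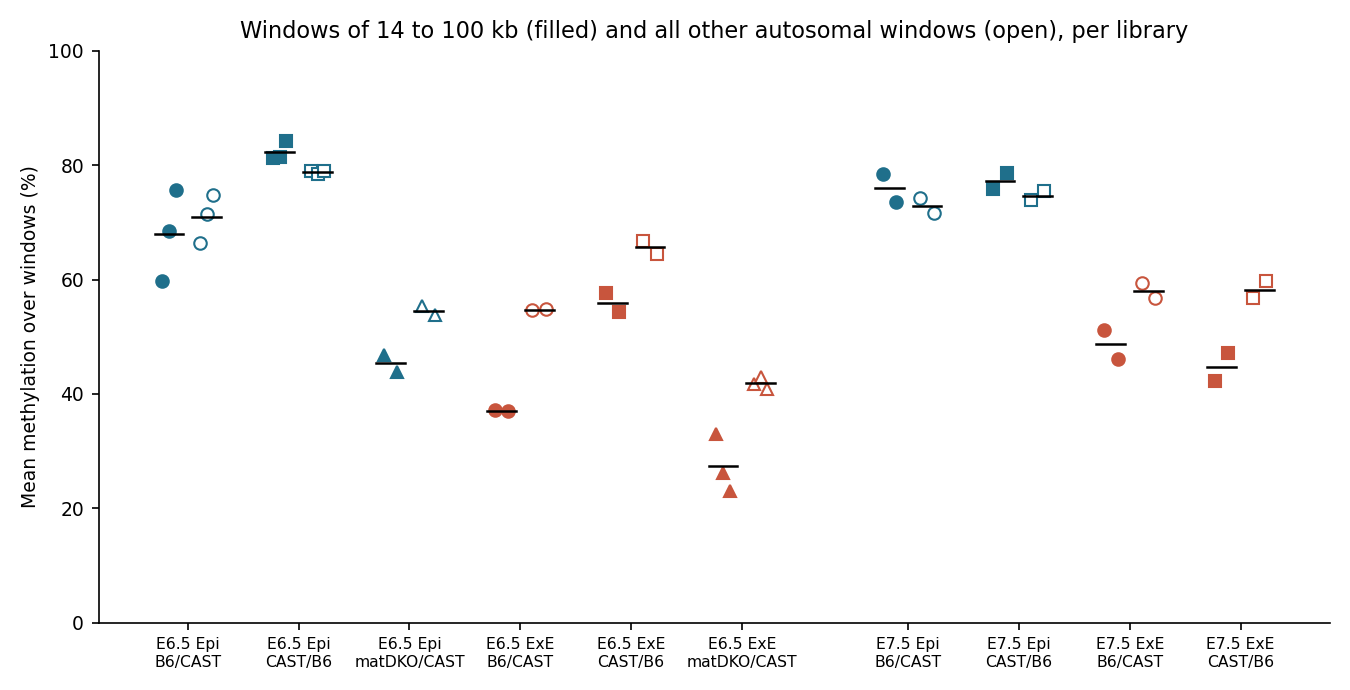
Mean methylation (%) of the windows of 14 to 100 kb (filled symbols) and of all other autosomal windows (open symbols) in each of the 23 libraries, by day, tissue and cross, with black bars at the group means. At E7.5 the 4 ExE libraries lie between 42.2% and 51.1% in the long windows, below all 4 Epi libraries, and at E6.5 the matDKO/CAST libraries lie lowest in each tissue.

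At E7.5, within each library, the long windows stood above the rest of the genome in Epi and below it in ExE. The long windows exceeded the other windows by 2.89 ± 1.07 points in Epi (SD, n = 4, range 2.03 to 4.25) and differed from them by -11.5 ± 2.73 points in ExE (SD, n = 4, range -14.6 to -8.17). The other windows include the short ones with CpG islands, and against the windows of 7 to 14 kb the long windows were lower in every library, by -3.55 to -2.18 points in Epi and by -11.6 to -7.87 in ExE. The SD over single long windows averaged 7.42 points in Epi and 8.62 in ExE, against 22.4 and 19.5 for the other windows and 7.76 and 11.3 for those of 7 to 14 kb. In an average Epi library 0.28% of the long windows were under 50% methylated, and 0.49% of those of 7 to 14 kb. In ExE this share averaged 65.6% ± 15.04 (SD, n = 4) and ranged from 45.2% to 80.8%.

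Almost every single long window differed in the same direction. In limma on percent methylation over all autosomal windows with cross as a covariate, 18310 of 18466 long windows were higher in Epi at a Benjamini-Hochberg adjusted p under 0.05, where 82.9% of all windows were called in this direction. Another 3 were higher in ExE, where 1.30% of all windows were. The median difference of the long windows was 30.4 points, with the central 90% between 19.4 and 39.6, and the median over all windows was 16.5. A difference of 20 points or more was present in 17364 long windows (94.0%, against 36.2% of all windows), and of 30 points or more in 9711 (52.6%, against 8.51%). The 4 Epi values lay above the 4 ExE values in 17716 long windows (95.9%, where 73.8% of all windows did so), and 9 long windows had a difference below 0. After the mean over all autosomal windows was subtracted from each library, which takes away a general difference of 16.3 points, the long windows differed by 13.7 points. In limma on these values 13828 long windows were higher in Epi and 63 higher in ExE, together 75.2%, where 39.8% of all windows were called in either direction.

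**Figure D2:**
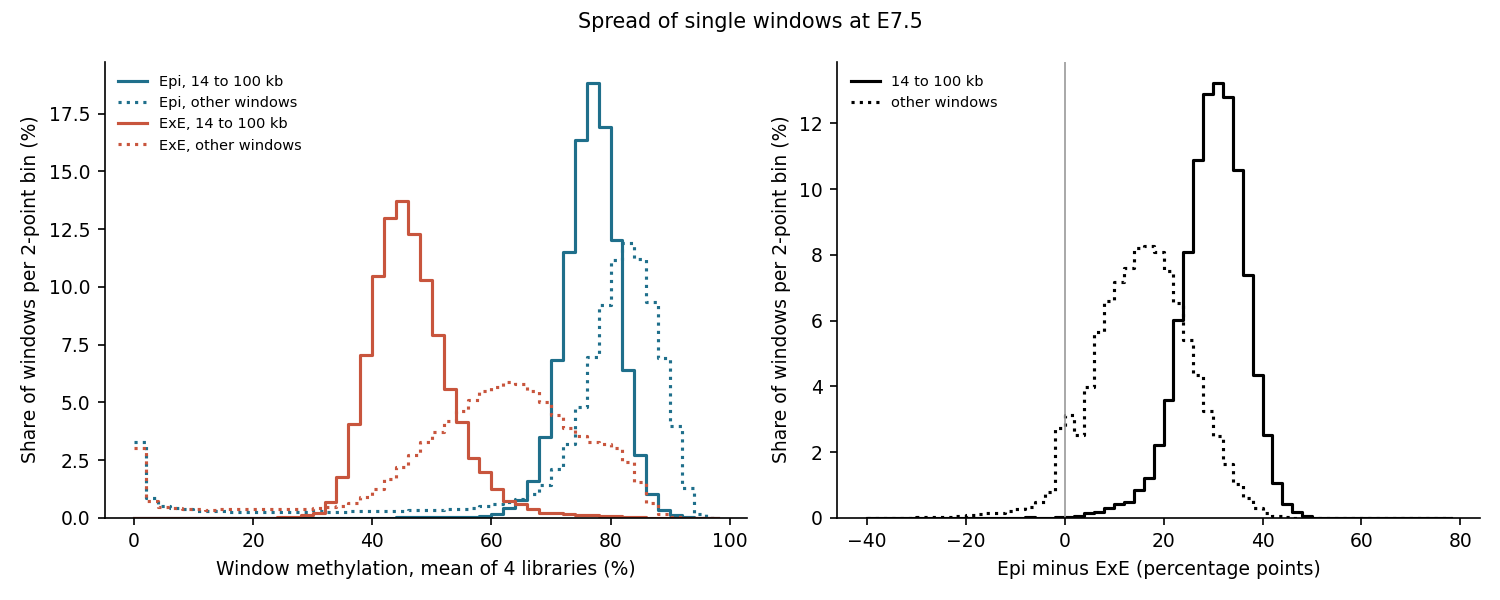
Share of windows (%) per bin of 2 points by E7.5 methylation in Epi and ExE (left, mean of 4 libraries) and by Epi minus ExE difference in percentage points (right), for windows of 14 to 100 kb (solid) and all other windows (dotted). The long windows form a single narrow peak in each tissue, and their differences centre at a median of 30.4 points.

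The tissue difference was larger in longer windows up to those of 18 to 20 kb, which had 76.0% in Epi and 45.0% in ExE. It was about the same at 20 to 30 kb. In Epi the mean was 80.5% in windows of 4 to 7 kb, 78.5% at 10 to 14 kb, 77.2% at 14 to 16 kb and 75.9% at 20 to 30 kb. The same bins of ExE had 64.5%, 52.2%, 47.7% and 44.9%. From the shortest to the longest of these bins Epi was lower by under 5 points and ExE by about 20, and windows just inside the bound resembled those just outside it. Windows of 13.5 to 14 kb had 77.5% in Epi and 48.9% in ExE, and windows of 14 to 14.5 kb had 77.4% and 48.4%. Short windows were different in kind: those under 1 kb, which hold CpG islands, had 5.48% in Epi and 5.72% in ExE. The 193 windows of 30 to 100 kb departed from this order, at 72.7% in Epi and 51.9% in ExE. The 81 of these over 50 kb consisted of a median of 81.0% unread assembly gap, so that their length does not reflect sparse CpGs.

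**Figure D3:**
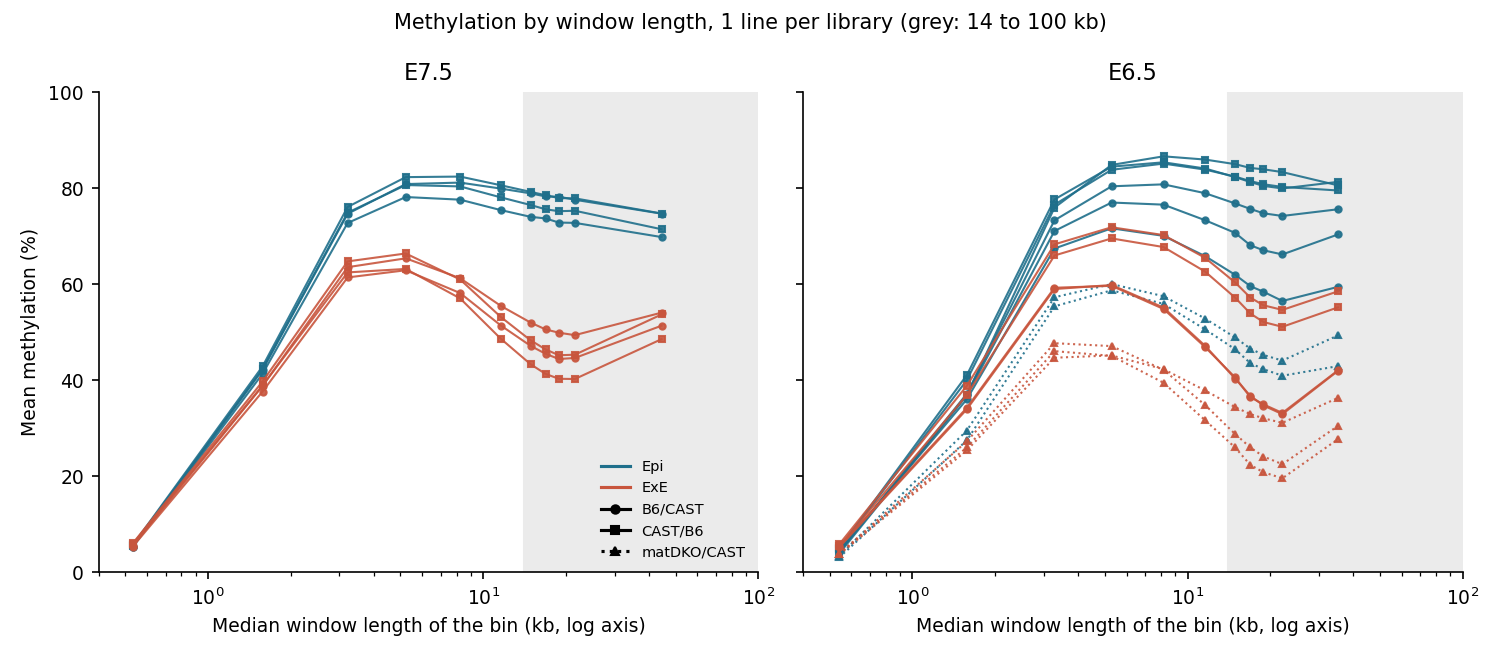
Mean methylation (%) against the median window length of each length bin (kb, log axis) at E7.5 and E6.5, with 1 line per library, colour for tissue and symbol for cross, and the range of 14 to 100 kb in grey. At E7.5 the mean fell from the bin of 4 to 7 kb to that of 20 to 30 kb by 3.26 to 5.38 points in the Epi libraries and by 15.98 to 22.9 in the ExE libraries, while at E6.5 the falls of matDKO/CAST libraries in both tissues overlapped.

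At E7.5, GC content separated the long windows in ExE but not in Epi. In 5 equal groups by GC content, from a median of 35% to 39.7%, ExE methylation averaged 43.7%, 44.9%, 46.1%, 47.8% and 50.9%, while Epi stayed between 76.6% and 76.8%, so the tissue difference went from 32.9 to 25.8 points. By CpGs per kb, ExE went from 44.6% in the sparsest group to 49.6% in the densest and Epi from 75.8% to 77.1%. By the solo-WCGW share, from a median of 20% to 37.9%, ExE went from 49.7% to 44.2%, Epi from 77.2% to 75.97% and the difference from 27.5 to 31.7 points. Across the 18466 windows Spearman's rank correlation with GC content was 0.38 for ExE, 0.04 for Epi and -0.39 for the difference. It was 0.25 for ExE and 0.13 for Epi with CpGs per kb, and -0.28 and -0.12 with the solo-WCGW share. This is a description over windows that share the same 8 libraries and in which GC, CpG density and solo-WCGW share vary together. The distance to the nearest coding start gave a similar order, with differences of 27.5 points in the nearest group and 31.8 in the farthest.

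Overlap with genes went with small differences in level. Long windows with no coding gene averaged 76.7% in Epi and 46.4% in ExE (30.3 points, 14043 windows), those inside a coding gene 77.1% and 47.5% (29.6 points, 3003 windows) and those partly in a coding gene 75.5% and 47.4% (28.0 points, 1420 windows). A coding start within the window went with a difference of 28.3 points (3207 windows), against 30.4 without (15259 windows). The chromosomes were alike: the mean difference ran from 28.7 points on chromosome 9 to 31.3 on chromosome 15, although long windows took up 6.55% of the tiled length of chromosome 19 and 18.1% of chromosome 14.

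The level of a long window in ExE was partly shared between crosses and between neighbours. Across windows, Pearson's r between the B6/CAST mean and the CAST/B6 mean was 0.66 in ExE, 0.33 in Epi and 0.35 for the tissue difference (n = 18466). Between neighbouring long windows at most 1 kb apart, r was 0.45 in ExE and 0.18 in Epi over 6407 pairs. These are descriptions across windows, which are not replicates. The windows clustered: 377 bins of 1 Mb held at least 20 of them and 10892 in all. The densest, chromosome 6 from 45 to 46 Mb in the neuronal gene Cntnap2, held 48 windows, with 75.02% in Epi and 42.7% in ExE. On chromosome 15, the bin from 48 to 49 Mb over Csmd3 held 39, with 76.2% and 40.5%.

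The genes that held the most long windows included long genes known from neurons, such as Cntnap2 and Ptprd, and from muscle, such as Sgcz and Trdn. By window midpoint, 81 coding genes held 10 or more, 1669 windows together, and in all 81 the mean of each Epi library lay above that of each ExE library. The library means over all windows were apart too, with 12.5 points between the lowest Epi and the highest ExE. Their median difference was 31.5 points, and it ranged from 23.7 to 36.3. Cntnap2, a contactin-associated protein of axons (chr6:45059357-47304213), held 79. The means over those 79 windows were 78.04%, 73.8%, 75.04% and 78.3% in the Epi libraries and 49.2%, 44.0%, 40.5% and 45.4% in the ExE libraries. The groups did not overlap, the difference was 31.5 points, and limma called each of the 79 windows higher in Epi.

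Other genes near the top of this list behaved alike. Ptprd, a receptor tyrosine phosphatase of synapses, held 48 windows with a mean of 76.2% in Epi and 43.7% in ExE. Sgcz, the zeta subunit of the sarcoglycan complex, held 42 with 74.9% and 42.1%. The largest difference was that of Csmd3, a large transmembrane protein, with 44 windows. Its Epi libraries had 80.5%, 74.9%, 76.5% and 78.6% and its ExE libraries 46.3%, 39.5%, 37.9% and 41.7%, which differ by 36.3 points. Next came Trdn, triadin of the sarcoplasmic reticulum, with 36.1 points over 17 windows, and the synaptic adhesion gene Lrfn5 with 35.4 points over 15. The protocadherin Pcdh9 followed with 35.3 points over 10 windows and the cadherin Cdh12 with 34.8 points over 15.

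At the other end of the 81 genes the difference was smaller, and ExE lay above the median gene level of 44.9%. Fhit, a hydrolase gene at a common fragile site, had 81.9% ± 2.40 in Epi and 58.2% ± 2.75 in ExE (SD, n = 4) over 11 windows, a difference of 23.7 points. A830018L16Rik had 79.3% and 54.6% over 12 windows, and Gphn, the gephyrin scaffold of inhibitory synapses, 80.01% and 52.5% over 10. The GABA receptor subunit gene Gabrg3 had 74.9% and 48.9% over 10 windows, and Pcdh15, a protocadherin of hair cell links, 76.7% and 48.9% over 17. Even these ExE levels lay below the mean of the other windows of the genome or within 1 SD of it. Other genes among those with the most windows (Nrg3, Lrp1b, Lrrc4c, Nkain2, Dlg2, Grm7, Cntnap5a, Ccser1, Cntnap5b and Dpp10) had differences of 29.6 to 33.7 points over 29 to 41 windows each.

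**Figure D4:**
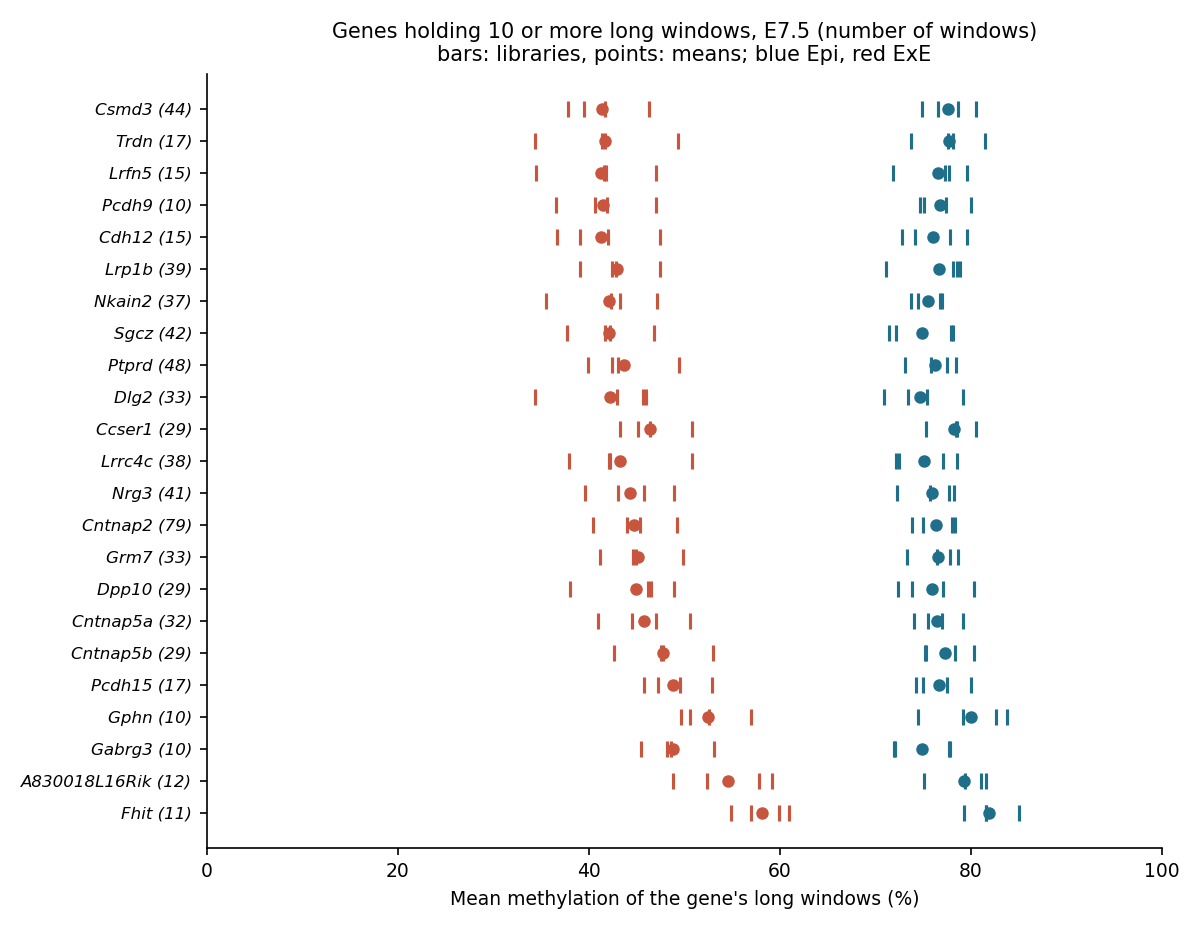
Mean E7.5 methylation (%) over the long windows of 23 genes that hold 10 or more of them, with a tick for each library and a point for the mean of 4 libraries, Epi in blue and ExE in red, ordered by the difference and with the number of windows in brackets. The ticks of both tissues are apart in each gene, from 23.7 points in Fhit to 36.3 in Csmd3.

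Gene lists gave the same picture with a few exceptions, and each is read against the 99.2% of all long windows that were called higher in Epi and their median of 30.4 points. Genes of synaptic adhesion and axon guidance had a long window in 33 of 44 cases, and 455 of their 456 windows were higher in Epi, with a median of 32.1 points. Ion channels and transmitter receptors had 234 of 234 (31.7 points), cadherins and unclustered protocadherins 74 of 74 (32.5 points) and large fragile-site genes 353 of 355 (32.5 points). Olfactory receptors, which sit in large clusters, had 448 of 449 (30.5 points), and vomeronasal and taste receptors 242 of 246 (30.7 points). The placental prolactin, Psg, Ceacam and cathepsin clusters, whose genes are used in trophoblast and its derivatives, had 32 of 32 with a median of 28.1 points. Among those, the values ranged from 42.9 points at Prl2c2 to 14.5 at Ceacam11.

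Few genes of the trophoblast, epiblast and housekeeping lists had a long window, which 10.2% of all 20807 autosomal coding genes touched. None of 24 trophoblast genes and none of 18 housekeeping genes had 1. Of the epiblast genes only Lin28b, an RNA-binding regulator of let-7, had a window, with 86.3% in Epi and 63.7% in ExE. Imprinted genes had 14 windows in 7 of 77 genes, with a median of 18.2 points, and 13 were called. The 7 windows at Snrpn averaged 73.9% and 47.5%, whereas 3 windows at Ube3a had 90.2% in Epi and 82.1% in ExE, and the difference of 8.04 points was called in 2 of the 3. Genes with symbols that begin like those of KRAB zinc finger genes had 70 windows with a median of 25.6 points, and 59 were called. The Zfp804 genes, Zfp804b with 31.8 points over 18 windows and Zfp804a with 36.5 over 6, were like the other long windows. By contrast, 2 windows each at Zfp991 (6.66 points) and Zfp993 (8.24 points) were not called. Differences under 16.3 points, such as those at Ceacam11, Ube3a, Zfp991 and Zfp993, turn negative once the mean over all windows is subtracted from each library.

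Single windows at the extremes had methylation that differed by about 50 points between tissues. The largest difference was at chr5:11794895-11817891, an intergenic window with 100 CpGs, whose midpoint sequence is printed first. It had 77.98% and 100% in B6/CAST Epi, 90% and 94.1% in CAST/B6 Epi, 35.5% and 37.8% in B6/CAST ExE and 37.4% and 41.7% in CAST/B6 ExE. The difference was 52.4 points (SE 4.32, limma adjusted p = 7.92e-05). Windows were named for the largest difference only where the tissues did not overlap and the adjusted p was under 0.05. The next were chr12:62892764-62908196, 1377 kb from the start of Lrfn5, with 50.9 points, and chr4:79105324-79122374, 902 kb from the start of Ptprd, with 49.4. Of the 8 windows named for the largest difference, 7 lay outside coding genes, and the other was in Grik2, a kainate receptor subunit gene (chr10:49136554-49151974, 48.6 points).

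The reverse was found in 2 windows whose 4 and 4 values did not overlap, and both were atypical. At chr13:120045562-120067964, over Gm21188 and Gm31544 and with 157 CpGs, Epi had 10.7%, 6.55%, 11.0% and 15%, and ExE had 36.6%, 33.9%, 33.4% and 36.8%. ExE was higher by 24.3 points in this window (Epi minus ExE -24.3, SE 2.35, limma adjusted p = 9.33e-05). The window chr4:156254711-156309405, which reaches into Samd11, had 22.4% in Epi and 43.2% in ExE (Epi minus ExE -20.8, SE 3.62, adjusted p = 0.000811), and 91.6% of it is assembly gap. In both, Epi was far below the 76.7% of the average long window.

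A further set was highly methylated in both tissues. At chr17:17084100-17107874, over the zinc finger gene Zfp960, the Epi mean was 81.3% ± 7.11 and the ExE mean 81.0% ± 3.96 (SD, n = 4), a difference of 0.320 points (SE 3.84, adjusted p = 0.945). Windows inside Lnpk, Itfg1 and Arhgap5 had 83.1% to 85.9% in Epi and 80.6% to 82.2% in ExE, and their adjusted p-values of 0.301 to 0.506 missed the threshold. Lnpk shapes the endoplasmic reticulum and Arhgap5 encodes a GTPase-activating protein. Low methylation in both tissues was also found: the window over the start of Cntnap2 (chr6:45043617-45059869, 62 CpGs) had 31.6% ± 4.84 in Epi and 27.3% ± 6.49 in ExE (adjusted p = 0.323), next to the 79 windows of its gene body at 76.3% and 44.8%. A window in Ugt8a, the galactosyltransferase of myelin lipids, had 40.8% in Epi and 30.6% in ExE (adjusted p = 0.0198). The 3 longest members were 2 assembly gaps and a CpG-richer window of 1221 CpGs over Slc25a37, Synb and Entpd4, in which Epi had 86.7% and ExE 81.4% (adjusted p = 0.132).

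At E6.5 the long windows already differed between the tissues, and the libraries were more scattered. Over the 23077 members measured in 10 wild-type libraries, B6/CAST Epi had 59.3%, 68.2% and 75.6% and CAST/B6 Epi 81.2%, 81.3% and 84.3%. B6/CAST ExE had 36.7% and 36.5% and CAST/B6 ExE 57.3% and 54.0%. Epi lay above ExE in every library, by as little as 1.99 points across crosses. The pooled means were 74.98% ± 9.59 (SD, n = 6) in Epi and 46.1% ± 11.1 (SD, n = 4) in ExE, with a difference of 28.9 points, or 12.4 when the mean over all windows was subtracted from each library. Within B6/CAST the difference was 31.1 points and within CAST/B6 26.6. The other windows differed by 15.2 points, and there the Epi and ExE libraries overlapped. Within a library, the long windows minus the other windows were -6.97, -3.26 and 0.713 points in B6/CAST Epi and 2.05, 2.85 and 4.98 in CAST/B6 Epi, so that the higher level seen in each E7.5 Epi library was absent from 2 of the B6/CAST libraries. In ExE they were -17.3 and -17.5 points in B6/CAST and -9.25 and -10.2 in CAST/B6.

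Window by window, limma called 21471 of 23077 long windows higher in Epi at E6.5, where 59.6% of all windows were called. When the mean over all windows was subtracted from each library, 6096 were higher in Epi and 45 higher in ExE, together 26.6%, where 14.9% of all windows were called in either direction. The median difference was 29.2 points, with the central 90% between 14.5 and 41.9 and 16.6 over all windows. At least 20 points were present in 19919 (86.3%, against 38.7% of all windows), and 35 windows had a difference below 0. Every wild-type Epi value lay above every ExE value in 6577 (28.5%, where 17.1% of all windows did so). Set side by side, the Epi means were 74.98% at E6.5 and 76.7% at E7.5 and the ExE means 46.1% and 46.7%. The days differ in protocol, pooling and depth and were not tested against each other. The GC order was present on both days: ExE went from 42.1% in the lowest GC group to 51.4% in the highest at E6.5. Spearman's rank correlation with GC content across the 23077 windows was 0.23 for Epi, 0.38 for ExE and -0.26 for the difference, as a description. Across the 10872 E7.5 windows that contain E6.5 window midpoints, Pearson's r of the tissue difference between days was 0.33, as a description.

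The reciprocal crosses did not overlap in level at E6.5 and overlapped at E7.5. CAST/B6 exceeded B6/CAST by 14.6 points in Epi and by 19.02 in ExE at E6.5, with no overlap of the libraries in either tissue, and by 8.13 and 11.4 points in the other windows. At E7.5 the same contrasts of the long windows were 1.26 points in Epi and -3.97 in ExE, with overlapping libraries. Relative to the other windows of the same library, however, the crosses did not overlap in E7.5 ExE, with -8.17 and -10.6 points in B6/CAST and -14.6 and -12.6 in CAST/B6. Per window, limma called 0 long windows in any of these 4 contrasts, where 0% of all windows were called. At an unadjusted p under 0.05 the counts were 4424 of 14414 in E6.5 Epi (30.7%, against 14.2% of all windows) and 9788 of 23567 in E6.5 ExE (41.5%, against 23.3%). At E7.5 they were 1457 of 18466 in Epi (7.89%, against 5.80%) and 1969 in ExE (10.7%, against 5.77%). At E7.5 the tissue difference was 27.4 points in B6/CAST and 32.6 in CAST/B6, and the limma test of that change called 0 long windows (0% of all windows), with 1824 at an unadjusted p under 0.05 (9.88%, against 4.83%). Strain, mother and library preparation cannot be told apart in the E6.5 contrast.

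In matDKO/CAST embryos the long windows were lower in both tissues. Over the 11681 members measured in all 15 libraries, the matDKO/CAST Epi libraries had 46.8% and 43.9% and the B6/CAST Epi libraries 59.7%, 68.5% and 75.7%. The matDKO/CAST ExE libraries had 33.0%, 26.1% and 22.97% and the B6/CAST ExE libraries 37.2% and 37.1%. The groups did not overlap in either tissue. In Epi the knockout mean was 45.3% ± 2.02 (SD, n = 2) against 68.0% ± 8.01 (SD, n = 3), a difference of -22.6 points, and 66.7% of the wild-type level remained. The difference was -5.81 points when the mean over all windows was subtracted from each library. In ExE it was 27.4% ± 5.14 (SD, n = 3) against 37.1% ± 0.07 (SD, n = 2), a difference of -9.75 points with 73.7% remaining, which turned to 2.92 when the mean over all windows was subtracted from each library. The other windows differed by -16.4 points in Epi and -12.9 in ExE, with 76.9% and 76.5% of the B6/CAST level remaining. In points the deficit of the long windows was thus the larger in Epi and the smaller in ExE, and neither order was tested. The ExE order in points rested on matDKO/CAST replicate 1. Without it the differences were nearly equal, at -12.6 points in the long windows and -12.8 in the others. As a share of the level the deficit was the larger in Epi. In ExE the order of the shares depended on single matDKO/CAST libraries. Without replicate 3, 79.7% remained in the long windows and 77.4% in the others. The shares were 75.44% and 75.45% without replicate 2, and 66.1% and 76.6% without replicate 1. Against CAST/B6, the cross with the higher level, the differences were -37.0 points in Epi and -28.6 in ExE.

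Single windows followed the libraries in Epi. In limma, 4535 of 14414 long windows measured in the 8 Epi libraries were lower in matDKO/CAST than in B6/CAST, where 23.4% of all windows were called. This count rested on few libraries: it was 1138 without the unnumbered B6/CAST library, 2239 without B6/CAST replicate 3 and 6243 without B6/CAST replicate 1, 2599 without matDKO/CAST replicate 3 and 2626 to 2963 without each CAST/B6 library, and it was 0 on the logit scale and 0 after the library mean was subtracted. The median difference was -22.7 points, with the central 90% between -42.7 and -2.14 and -16.4 over all windows. A value below 0 was present in 13911 (96.5%), and in 8069 every matDKO/CAST value lay below every B6/CAST value (49.7% of all windows did so). In ExE the median was -9.57 points over 23567 long windows, against -12.4 over all windows, and 20397 (86.5%) were below 0. Every matDKO/CAST ExE value lay below every B6/CAST value in 7947 (48.7% of all windows did so). The limma test in ExE called 0 long windows, where 0% of all windows were called. An unadjusted p under 0.05 was found in 3460 long windows (14.7%), where 25.8% of all windows had one. Against both wild-type crosses pooled, limma called 4008 long windows lower in ExE, where 26.3% of all windows were, and 8998 lower in Epi, where 47.7% were.

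The windows with the deepest deficits in Epi had low values in the knockout. They are extremes picked from 14414 windows, with 2 knockout libraries of unknown depth. At chr8:60132112-60147359, an intergenic window, B6/CAST Epi had 78.6%, 70% and 88.5% and matDKO/CAST 16.7% and 7.69%, a difference of -66.8 points (SE 6.64, limma adjusted p = 0.0129). At chr8:64002725-64017759 in Tll1, a metalloprotease gene, B6/CAST had 84%, 72.2% and 75% and matDKO/CAST 7.14% and 16.7% (-65.2 points, SE 6.19, adjusted p = 0.0129). No long window was called higher in matDKO/CAST. A value above 0 was present in a window of Ctnna3, an alpha-catenin gene (27.4 points, SE 8.97, adjusted p = 0.0560), where CAST/B6 had 79.2% to 89.4% against 31.3% to 57.9% in B6/CAST. In ExE the deepest deficit was in Cacna2d1, a calcium channel subunit gene, with 54.0% and 57.5% in B6/CAST and 23.2%, 2.63% and 7.84% in matDKO/CAST (-44.5 points, SE 11.4, adjusted p = 0.132), and CAST/B6 there had 29.4% and 68.4%.

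The mean over the windows of a long gene was lower in matDKO/CAST in Epi. Of the 81 genes above, 68 held at least 5 E6.5 long windows measured in all 15 libraries. The mean difference between matDKO/CAST and B6/CAST was below 0 in all 68 in both tissues, with a median of -24.1 points in Epi and -8.98 in ExE, and after the library mean was subtracted it was below 0 in 62 in Epi and in 10 in ExE. In 66 of the 68 every matDKO/CAST Epi library lay below every B6/CAST Epi library, and in 38 this held in ExE. The library means over all windows did not overlap in either tissue, with differences of -16.8 points in Epi and -12.7 in ExE. Cntnap2, with 31 such windows, had 66.7% ± 8.86 (SD, n = 3) in B6/CAST Epi and 37.7% ± 0.99 (SD, n = 2) in matDKO/CAST Epi, and 30.9% ± 1.24 (SD, n = 2) against 23.6% ± 6.34 (SD, n = 3) in ExE. The largest Epi deficit was that of Lama2, a laminin subunit gene, with -31.3 points over 5 windows, and the smallest that of Klhl1 with -12.6 over 5, which turned to 4.18 after the subtraction. Gphn had nearly equal deficits of -14.2 points in Epi and -16.4 in ExE over 8 windows.

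In Epi the gene lists named here moved much alike in the knockout, and this was not tested. In Epi the mean differences were -23.5 points for synaptic adhesion and axon guidance (221 windows), -24.4 for ion channels and receptors (140 windows), -22.3 for cadherins (52 windows) and -22.9 for olfactory receptors (313 windows), beside the -22.6 of all long windows. The zinc finger list had -21.5 in Epi and -8.79 in ExE over 47 windows. In the 8 windows of the imprinted list the tissue difference was 22.1 points in B6/CAST and 5.84 in matDKO/CAST, beside 30.8 and 18.0 in all long windows. ExE of this list was at 45.6% ± 4.81 (SD, n = 3) in the knockout, beside 27.4% in all long windows. After the library mean was subtracted, the ExE differences of these lists were above 0.

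The tissue difference in the long windows remained present in matDKO/CAST but was smaller. Epi exceeded ExE by 18.0 points in matDKO/CAST, 30.8 in B6/CAST and 26.3 in CAST/B6, while the ratio of ExE to Epi was 60.4%, 54.6% and 68.0%. In limma, 2736 of 11681 long windows were higher in Epi within matDKO/CAST, where 19.6% of all windows were called, and the count was 1223 without ExE replicate 3, 1703 without Epi replicate 1 and 1705 without ExE replicate 2. The test of the difference between matDKO/CAST and B6/CAST in the tissue difference called 0 long windows (0% of all windows), and 1927 had an unadjusted p under 0.05 (16.5%, against 8.80% of all windows). From the lowest to the highest of 5 groups by GC content, matDKO/CAST went from 42.9% to 48.6% in Epi and from 24.96% to 30.6% in ExE, and B6/CAST from 65.6% to 70.7% and from 32.5% to 42.8%. The order by GC content was thus seen in each of these 4 groups. Within a library, the long windows differed from the other windows by -8.56 and -9.84 points in the matDKO/CAST Epi libraries, and by -8.72, -16.9 and -17.9 points in the ExE libraries. Over the same windows the B6/CAST libraries had -6.74, -2.96 and 0.862 points in Epi and -17.5 and -17.7 in ExE, which overlapped with matDKO/CAST in ExE and not in Epi.

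The parental alleles of the long windows differed by under 1 point on average at E7.5. Reads assigned by strain variants gave both alleles in all 4 libraries for 8662 long windows in Epi and 15475 in ExE. In B6/CAST Epi the maternal and paternal means were 80.1% and 79.5% in replicate 1 and 75.01% and 74.4% in replicate 2. In CAST/B6 Epi they were 76.6% and 77.4%, then 79.7% and 80.2%. The maternal allele was the higher in B6/CAST and the lower in CAST/B6, so that over the 4 Epi libraries maternal minus paternal was -0.0244 ± 0.769 points (SD, n = 4). In ExE it was -0.179 ± 0.442 points (SD, n = 4), with maternal and paternal means of 46.9% ± 4.02 and 47.1% ± 3.66. Ordered by strain, the B6 allele exceeded the CAST allele in 4 of 4 Epi libraries, by 0.654 ± 0.148 points (SD, range 0.500 to 0.856), beside 0.522 in the other windows, and by 0.371 ± 0.233 in ExE, beside 0.643 in the other windows.

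**Figure D5:**
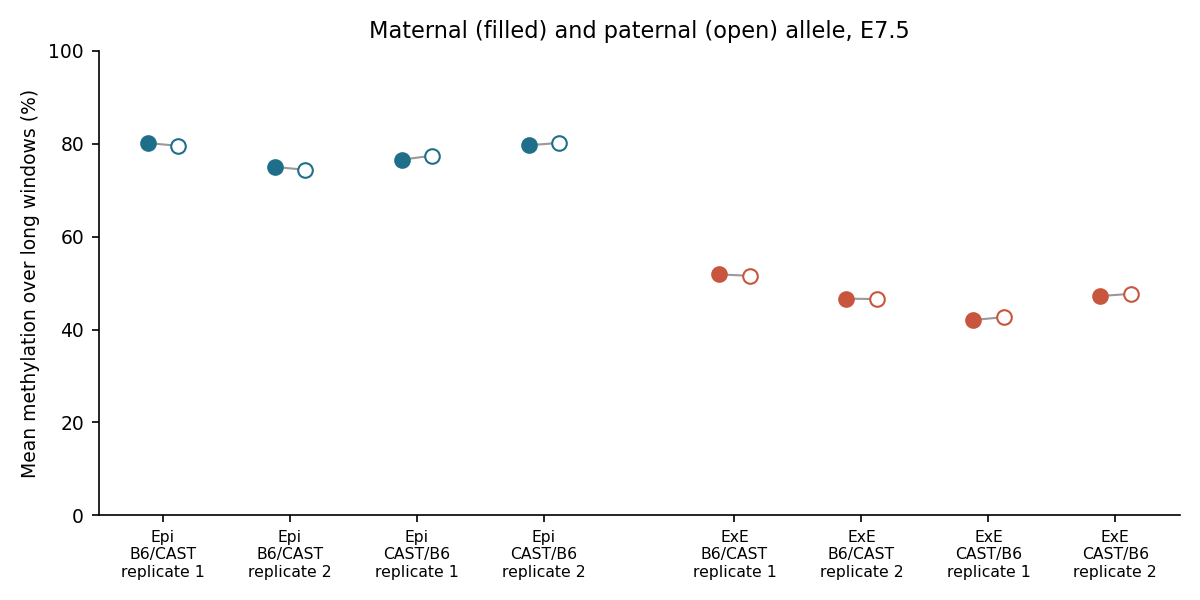
Mean methylation (%) of the maternal (filled) and paternal (open) allele over the long windows in each of the 8 libraries of E7.5, joined within a library. The tissues are about 30 points apart while the alleles of a library differ by under 1 point.

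Single windows had no called parental difference. For maternal against paternal, limma called 0 of 8662 long windows in Epi, where 0.00838% of all windows were called, and 0 of 15475 in ExE, where 0.00722% were; the counts at an unadjusted p under 0.05 were 756 (8.73%, against 4.87% of all windows) and 1396 (9.02%, against 6.38%). For the B6 against the CAST allele it called 0 in either tissue (0% of all windows), with 849 (9.80%, against 6.65% of all windows) and 1736 (11.2%, against 8.73%) at an unadjusted p under 0.05. The maternal allele was higher in all 4 Epi libraries in 540 long windows and the paternal in 509, together 12.1%, where 11.8% of all windows had 1 allele higher throughout. In ExE the counts were 929 and 935, together 12.05%, where 12.6% of all windows did. Among the few ExE windows named for a large gap of the same sign in all 4 libraries, the smallest p was in an intron of Galnt13, a glycosyltransferase gene (chr2:55055925-55072330), with 28.4%, 26.9%, 26.2% and 23.6% on the maternal and 59.5%, 55.3%, 58.6% and 53.5% on the paternal allele. The alleles did not overlap. The difference was -30.4 points (SE 3.84) with an unadjusted p of 0.000202, and it did not pass the adjustment over all windows tested (limma adjusted p = 0.777).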

How the data were processed

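Percent methylation per window was deposited by the authors in 3 tables (E6.5, E7.5 and E7.5 by allele), made from post-bisulphite adaptor tagging reads. Per the labels and the submitters' processing notes, reads were trimmed with Trim Galore 0.4.4 and mapped with Bismark 0.20.0 to GRCm38, and the labels give a second conversion of the E7.5 libraries because the first was poor. The study's methods describe a genome masked at strain variants and SNPsplit for the alleles, pools of embryos at E6.5 and a matDKO/CAST Epi library left out for poor mapping. Coverage is not given, so no test on read counts and no counting interval was possible and the depth behind each percentage is unknown. The windows were named for 100 CpGs, yet held a median of 51 reference CpGs at E7.5.

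Chromosome ends were compared with the reference before use. Features came from RefSeq GRCm38.p6 and GENCODE M21. Tests were fitted with limma 3.58.1 (R 4.3.3) on percentages over all autosomal windows measured in the libraries of each fit and adjusted by Benjamini-Hochberg over all of them (threshold 0.05), with cross as covariate or as group. Allele tests used the difference within each library, with cross coded to separate parent from strain. Member means carry no test. Tests were two-sided. E6.5 replicates are separate pools and E7.5 replicates separate embryos as far as the study states; p-values measure the spread between these few libraries. Windows named were the extremes of tissue, allele and knockout difference, the lowest, the longest and those without a difference, at least 50 kb apart; genes were those with 10 or more members by midpoint. A gene that this rule names is not reported here. Members and lists were chosen with earlier results of these data known. The list called KRAB was taken by symbol prefix and holds other zinc finger genes. Alternatives were other length bounds, medians, length weights, a logit scale, library centring, a replicate block, pooled wild types and leaving out each library. The tissue test within matDKO/CAST, the E6.5 gene means and 4 of the alternatives were added after the data were seen. At E7.5, requiring 2 libraries per group selected the windows already fitted. A single E6.5 B6/CAST Epi column could be tied to its group only and is called unnumbered.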

Additional observations from a re-analysis of the deposited data

Results flagged for a closer look

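In 2 of 54 groups of 4 or 6 libraries tested, 1 library stood apart from the others, where chance gives about 1 group in 20. In the window chr14:90631061-90653909, which has among the largest tissue differences, B6/CAST Epi replicate 1 had 91.5% against 81.4% to 83.0% in the other 3 Epi libraries. In the window chr9:13318756-13418101 in Maml2, of which 90.7% is assembly gap, CAST/B6 Epi replicate 2 had 91.3% against 77.8% to 79.2%. In both windows every Epi library remained above every ExE library.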

How the results depend on the processing

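The E7.5 tissue difference kept its direction under each alternative run. Long windows called higher in Epi numbered 18203 to 18307 when any library was left out, 18354 on the logit scale, 18336 with a replicate block, 17362 for a difference of at least 20 points and 13828 after the subtraction described next. Subtracting each library's mean over all autosomal windows moved the member means most: the tissue difference became 13.7 points at E7.5 and 12.4 at E6.5, the matDKO/CAST difference -5.81 in Epi and 2.92 in ExE, where it changed sign. After the same subtraction 6096 E6.5 windows were called higher in Epi, against 21471. The E6.5 calls numbered 12104 with a replicate block, where 21.3% of all windows were called in either direction. That block gives no weight to libraries without a same-numbered partner. The libraries with a partner gave 12154 calls without the block. The matDKO/CAST calls in Epi, 4535, became 0 on the logit scale, 0 after the subtraction, 0 with a replicate block, 0 in the libraries with a partner without the block (5019 at an unadjusted p under 0.05 in limma) and 8998 against both wild-type crosses pooled, and ran from 1138 to 6243 when a library was left out. In ExE the pooled comparison called 4008, against 0. The calls between the tissues within matDKO/CAST ran from 1223 to 3090 when a library was left out. The cause of these moves was not tested. Same-numbered wild-type Epi and ExE libraries had correlations of -0.002 to 0.051 across windows, after group means were taken off. Noise from unknown depth lowers such values, so they cannot decide whether the numbers pair libraries. In the E7.5 member means, the higher Epi and the higher ExE library had the same number in each cross. With a lower bound of 20 kb the matDKO/CAST Epi mean was 42.6%. The B6/CAST ExE mean of E6.5, whose SD over 2 libraries was 0.07, was 39.5% with a lower bound of 12 kb, 33.4% with 20 kb, 35.7% as a median over windows, 36.7% weighted by length, 36.5% over every window measured in a library and 35.6% in E6.5 windows centred in an E7.5 long window. The other 78 member means stayed within 1 SD and the other 27 counts within 1.5 times. The 46 limma adjusted p-values of named windows stayed on the same side of 0.05, although their size changed. Unknown coverage limits single windows, above all at E6.5 and for alleles.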
